A study of Mus musculus with 20 samples.

Results

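The 10 genes described here, Cdkn1a, Cdkn1b, Btg1, Btg2, Tob1, Ccng2, Foxo1, Foxp1, Tsc22d3 and Slfn2, hold T cells in quiescence or stop the cell cycle. They were chosen by symbol, and 10 of 10 were present in every table, among 12975 genes in the RFP table, 13766 in the Bcl6 table, 13624 in the Prdm1 table and 25036 in the Tcf7 table. Bulk RNA-seq was measured in 20 libraries. The labels and design text place 18 of them in groups of TCRαβ+CD8αα+ intraepithelial lymphocytes (IELs), T cells that live between the epithelial cells of the gut, here from mouse small intestine, and the other 2 in no group. Cells sorted as RFP+CD160+ and cells sorted as RFP−CD160− (3 libraries each) came from Bcl6-RFP/RFP mice, in which a red fluorescent protein reports the Bcl6 locus, so both sorted groups carry the reporter. CD8αα+ IELs as a whole came from Bcl6fl/fl Cd8cre, Prdm1fl/fl Cd8cre and Tcf7fl/fl Cd8cre mice (KO, 2 libraries each) and from Bcl6fl/fl, Prdm1fl/fl and Tcf7fl/fl littermates without Cre (WT, 2 libraries each). All mice were described as being at steady state; their age was not in the labels. Cre was driven by Cd8 sequences and was carried by the KO mice alone, so effects of Cre and of deleting the floxed gene cannot be told apart. The labels do not say that libraries of a group came from separate animals, and p-values measure the spread between these libraries only, which may be technical.

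Resting T cells are kept out of the cell cycle by active programmes, and these are commonly taken down when the T cell receptor is engaged. CDK inhibitors block the kinases that drive entry into S phase, BTG and TOB proteins recruit the CCR4-NOT deadenylase to shorten the poly(A) tails of mRNAs, and FOXO1 and FOXP1 maintain the transcription of the naive and resting state. IELs are antigen-experienced but divide slowly in the undisturbed gut, and they are known for keeping some features of activated cells.

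Genes called higher or lower in at least 1 comparison, by an adjusted p under 0.05 in limma, were Cdkn1a, Btg1, Btg2 and Ccng2. Their promoters are shown because these are the members that the results turn on. Each window is RefSeq sequence (GRCm38.p6) from 250 bases before to 50 bases after an annotated start, written 5′ to 3′ on the gene's strand, and all 10 genes had at least 1 such window (15 in all). The windows lie at chr10:96616751-96617050 on the plus strand for Btg1, chr1:134079106-134079405 on the minus strand for Btg2 and chr5:93267323-93267622 on the plus strand for Ccng2. For Cdkn1a, with starts at separate places, they lie at chr17:29090729-29091028 (start 1) and chr17:29093519-29093818 (start 2), both on the plus strand. On GRCm38 (GENCODE vM21), the genes themselves span chr10:96617006-96622809 (Btg1), chr1:134075170-134079120 (Btg2), chr5:93267257-93276231 (Ccng2) and chr17:29090976-29100727 (Cdkn1a). Capitals mark a match to the FOXO motif.
Btg1: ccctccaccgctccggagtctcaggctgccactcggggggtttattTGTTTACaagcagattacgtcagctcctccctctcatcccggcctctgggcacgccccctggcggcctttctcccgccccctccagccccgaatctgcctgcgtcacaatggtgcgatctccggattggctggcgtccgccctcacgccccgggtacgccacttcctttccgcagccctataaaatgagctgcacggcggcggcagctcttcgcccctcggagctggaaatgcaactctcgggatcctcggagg
Btg2: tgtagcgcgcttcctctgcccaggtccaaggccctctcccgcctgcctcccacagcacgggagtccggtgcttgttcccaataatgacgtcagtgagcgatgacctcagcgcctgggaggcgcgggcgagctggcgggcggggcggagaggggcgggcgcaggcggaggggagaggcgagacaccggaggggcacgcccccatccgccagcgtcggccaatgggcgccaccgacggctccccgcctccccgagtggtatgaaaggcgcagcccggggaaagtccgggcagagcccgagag
Ccng2: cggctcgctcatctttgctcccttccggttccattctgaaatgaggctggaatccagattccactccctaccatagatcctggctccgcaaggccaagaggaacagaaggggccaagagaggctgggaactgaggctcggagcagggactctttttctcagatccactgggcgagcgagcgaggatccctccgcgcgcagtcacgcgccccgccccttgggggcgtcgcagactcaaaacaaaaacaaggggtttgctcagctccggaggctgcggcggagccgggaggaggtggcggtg
Cdkn1a, start 1: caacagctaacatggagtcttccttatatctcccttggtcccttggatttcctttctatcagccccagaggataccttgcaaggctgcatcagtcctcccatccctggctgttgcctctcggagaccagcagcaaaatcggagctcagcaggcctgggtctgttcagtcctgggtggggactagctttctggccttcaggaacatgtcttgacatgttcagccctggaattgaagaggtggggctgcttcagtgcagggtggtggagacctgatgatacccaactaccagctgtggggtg
Cdkn1a, start 2: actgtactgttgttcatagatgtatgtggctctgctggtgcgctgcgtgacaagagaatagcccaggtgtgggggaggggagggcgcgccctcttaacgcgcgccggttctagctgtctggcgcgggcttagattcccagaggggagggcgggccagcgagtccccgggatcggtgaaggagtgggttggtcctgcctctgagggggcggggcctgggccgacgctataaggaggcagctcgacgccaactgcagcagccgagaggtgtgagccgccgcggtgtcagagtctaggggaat

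Of 4 motifs searched on both strands of the 15 windows, 1 was matched once. TGTTTAC, the FOXO motif, began 204 bases before the start of Btg1 (position -204) on the plus strand, and it occurs in 3.65% of all 32851 RefSeq windows of this length. The TCF/LEF motif CTTTGAT (3.73% of all windows), the BLIMP1 core GAAAGTG (4.81%) and the BCL6 motif TTCNTAGAA (1.07%) had no match, which says only that these letters are not in these windows.

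The labels were first checked against the sorted and deleted genes. Bcl6 had 13.7, 14.2 and 18.0 FPKM in RFP+CD160+ libraries, against 3.44, 3.30 and 3.59 FPKM in RFP−CD160− libraries. Cd160 averaged 238 ± 5.70 FPKM in RFP+CD160+ cells and 66.0 ± 3.94 FPKM in RFP−CD160− cells (SD, n = 3 each), so neither transcript was absent from the cells sorted as negative. Prdm1 stood at 639.9 and 362 in Prdm1 KO libraries, against 6092 and 5117 in Prdm1 WT libraries. Tcf7 stood at 7757 and 7993 in Tcf7 KO libraries, against 15430.3 and 15606 in Tcf7 WT libraries. Bcl6 stood at 0.550 and 0.638 FPKM in Bcl6 KO libraries, against 0.772 and 0.735 FPKM in Bcl6 WT libraries, a low level that checks those labels only weakly. Values are FPKM, fragments scaled to gene length and library depth, in the RFP and Bcl6 experiments. In the Prdm1 and Tcf7 experiments they are reads divided by a size factor of the library, with no gene length (called signal here). Depth per library, in units of 1000000 reads, was 14.5 to 17.3 for sorted cells, 22.1 to 23.0 in the Bcl6, 30.1 to 38.4 in the Prdm1 and 41.0 to 48.2 in the Tcf7 experiment. Cd8a, Cd3e and Itgae, which define these IELs, averaged 574 ± 35.5, 167 ± 9.20 and 351 ± 17.9 FPKM in RFP+CD160+ cells, against 913 ± 38.0, 234 ± 11.2 and 564 ± 8.99 FPKM in RFP−CD160− cells (SD, n = 3 each). Cd8b1 averaged 0.935 ± 0.219 FPKM in RFP+CD160+ cells and 1.05 ± 0.248 FPKM in RFP−CD160− cells. Trac was absent from the RFP table and could not be read. Of 10 markers of gamma-delta T cells, 2 were present there and 0 reached the filter, so such cells could not be checked by these transcripts.

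Among the sorted cells, the members spanned almost the whole range of expression. Btg1 led in both groups, with 404 to 445 FPKM in RFP+CD160+ cells and 305 to 327 FPKM in RFP−CD160− cells, above 99.4% and 99.2% of the genes tested. Btg2 followed, with 262 to 349 FPKM in RFP+CD160+ cells and 189 to 245 FPKM in RFP−CD160− cells. Cdkn1b, Slfn2 and Tsc22d3 came next at 51.9 to 90.5 FPKM in RFP+CD160+ cells and 50.6 to 105.7 FPKM in RFP−CD160− cells, then Tob1, Foxo1, Ccng2 and Foxp1. Cdkn1a was last by far, above 5.75% of the genes tested in RFP+CD160+ cells and 1.32% in RFP−CD160− cells. The neighbours Cdkn1b and Slfn2, and Tob1 and Foxo1, had overlapping ranges in RFP+CD160+ cells. In RFP−CD160− cells Foxo1, Tob1 and Ccng2 could not be ordered beyond their spread.

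In the Bcl6 experiment the order of FPKM levels was led by Btg2, with 392 and 411 FPKM in Bcl6 KO cells and 539.2 and 539.8 FPKM in Bcl6 WT cells. Slfn2, Btg1 and Tsc22d3 held the next places, at 100.1 to 187 FPKM in Bcl6 KO cells and 110.4 to 152 FPKM in Bcl6 WT cells. Cdkn1a was last of the 10 in Bcl6 KO cells, with a range overlapping that of Ccng2, and seventh in Bcl6 WT cells, with a range overlapping those of Cdkn1b and Foxp1. It lay above 30.4% of the tested genes in Bcl6 KO cells and 65.1% in Bcl6 WT cells. Levels were not set across the Bcl6 and RFP tables, which the authors normalised apart.

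RFP+CD160+ cells against RFP−CD160− cells ask how the 10 genes differ between IELs sorted as positive for the Bcl6 reporter and for CD160, a surface receptor, and those sorted as negative for both. Btg1, Btg2 and Cdkn1a were higher in RFP+CD160+ cells, Ccng2 was lower, and the other 6 did not pass the test. On the FPKM+1 scale the largest difference was in Ccng2, 1.77-fold lower in RFP+CD160+ cells, and the 3 increases had log2 fold changes between 0.42 and 0.47. With a pseudocount of 0.1 FPKM, Cdkn1a (0.84) came close to Ccng2 (-0.86) in size. With 38.0% of all 9717 genes tested called in this comparison, 16.4% higher and 21.6% lower, 4 calls of 10 is a share near the background. The split of all called genes was 1591 higher and 2098 lower, and 3300 higher and 1171 lower with library totals rescaled, 2014 and 1747 after quantile normalization, and 1980 and 1746 after centring on well expressed genes. The members' median log2 fold change was 0.03, beside -0.03 over all genes tested. The groups did not overlap for 5 of the 10, beside 51.9% of all genes, and unadjusted p was under 0.05 for 5, beside 47.7%. Without RFP+CD160+ replicate 1, 2 members were called, Btg1 and Ccng2.

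Cdkn1a encodes p21, the CDK inhibitor that p53 and other stress signals induce. It had 1.77, 1.22 and 1.38 FPKM in RFP+CD160+ libraries 1, 2 and 3, against 0.614, 0.979 and 0.729 FPKM in RFP−CD160− libraries. Every RFP+CD160+ library was higher than every RFP−CD160− library. All RFP−CD160− libraries were below 1 FPKM, so the gene passed the filter on low values only through the RFP+CD160+ libraries and its call is no support for a difference of the 10 genes. Its log2 fold change of 0.47 ± 0.12 (SE) passed (limma adjusted p = 0.0197). It was 0.84 with a pseudocount of 0.1 FPKM, and the call was lost without RFP+CD160+ replicate 1 (adjusted p = 0.0798), RFP−CD160− replicate 1 (0.0503) or RFP−CD160− replicate 3 (0.0583). Cdkn1b encodes p27, the CDK inhibitor that accumulates in resting T cells. It had 77.6, 81.4 and 90.5 FPKM in RFP+CD160+ libraries, against 105.7, 91.1 and 94.1 FPKM in RFP−CD160− libraries. The groups did not overlap, and the log2 fold change of -0.22 (95% interval -0.40 to -0.04) did not pass, with a limma adjusted p of 0.0559. It passed without RFP+CD160+ replicate 3 (-0.28, limma adjusted p = 0.0271).

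Btg1 and Btg2 encode antiproliferative partners of the CCR4-NOT deadenylase that are abundant in resting lymphocytes. Btg1 had 420.0, 404 and 445 FPKM in RFP+CD160+ libraries, against 305, 327 and 317 FPKM in RFP−CD160− libraries. The groups were well apart, with a log2 fold change of 0.42 ± 0.06 (SE; limma adjusted p = 0.0012). Btg2, which is also an early-response gene of stimulated cells, had 307, 349 and 262 FPKM in RFP+CD160+ libraries, against 189, 231 and 245 FPKM in RFP−CD160− libraries. The third RFP+CD160+ library stood only just above the highest RFP−CD160− library. Its log2 fold change of 0.46 ± 0.13 (SE) passed (limma adjusted p = 0.0207), and the call was lost without RFP+CD160+ replicate 1 (adjusted p = 0.0680) or 2 (0.0667) and after quantile normalization (0.0532). Tob1, the TOB member of the same antiproliferative family, had 33.0, 28.5 and 39.9 FPKM in RFP+CD160+ libraries, against 31.1, 30.9 and 28.6 FPKM in RFP−CD160− libraries. These groups overlapped, and the log2 fold change was 0.15 (95% interval -0.11 to 0.40, limma adjusted p = 0.325).

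Ccng2 encodes cyclin G2, an unconventional cyclin that restrains the cell cycle and is a known target of FOXO factors. It had 15.6, 14.4 and 15.5 FPKM in RFP+CD160+ libraries, against 29.6, 25.9 and 27.3 FPKM in RFP−CD160− libraries. The 2 groups were tight and far apart. This is a log2 fold change of -0.82 ± 0.06 (SE; limma adjusted p = 4.0e-05). Like Btg1, Ccng2 kept its call and direction in 15 of 15 alternative settings.

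Foxo1, the transcription factor that sustains Il7r in resting T cells, had 24.5, 20.9 and 33.6 FPKM in RFP+CD160+ libraries, against 48.2, 28.4 and 23.7 FPKM in RFP−CD160− libraries. Its first RFP−CD160− library was high, and the groups overlapped. The log2 fold change was -0.30 with a 95% interval of -0.88 to 0.29 (limma adjusted p = 0.390), the widest interval of the 10. Foxp1, a repressor needed for naive T cell quiescence, had 9.33, 8.28 and 9.12 FPKM in RFP+CD160+ libraries, against 9.29, 7.53 and 7.91 FPKM in RFP−CD160− libraries. The groups overlapped, with a log2 fold change of 0.10 (95% interval -0.09 to 0.30, limma adjusted p = 0.360). Tsc22d3 encodes GILZ, a glucocorticoid-induced inhibitor of AP-1 and NF-κB, and ran over 51.9 to 55.9 FPKM in RFP+CD160+ cells and 50.6 to 59.5 FPKM in RFP−CD160− cells (limma adjusted p = 0.626). Slfn2, a Schlafen protein whose loss breaks T cell quiescence in mice, ran over 65.9 to 78.4 FPKM in RFP+CD160+ cells and 73.2 to 84.7 FPKM in RFP−CD160− cells (limma adjusted p = 0.242). Both pairs of ranges overlapped, and the log2 fold changes of -0.05 for Tsc22d3 and -0.13 for Slfn2 turned to 0.11 and 0.03 with library totals rescaled. That rescaling put the median over all genes at 0.12, in place of -0.03, and passed Tob1 (0.30) and Foxp1 (0.25) as well.

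**Figure D1:**
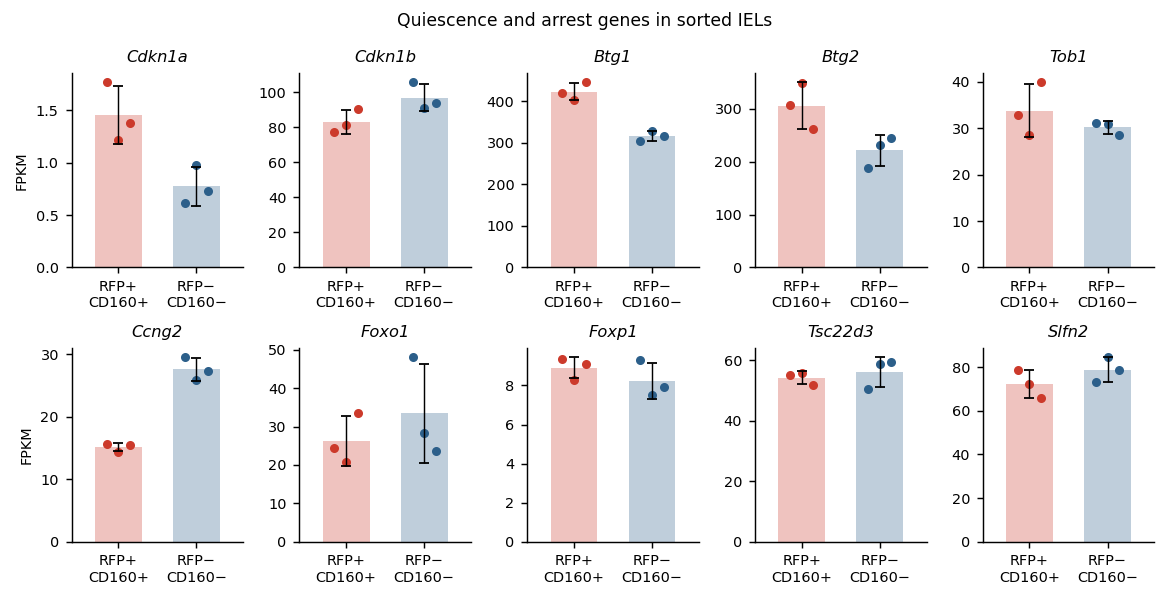
FPKM of the 10 genes in sorted IELs, 1 panel per gene with its own linear axis from 0. Points are libraries, bars are means and error bars are SD (n = 3 per group), with RFP+CD160+ cells on the left of each panel and RFP−CD160− cells on the right. Ccng2 lies at 14.4 to 15.6 FPKM in RFP+CD160+ cells, against 25.9 to 29.6 FPKM in RFP−CD160− cells, and Btg1 lies the other way round.

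Genes that mark other states moved with this contrast. Of 23 tested immediate-early and heat-shock genes, which can rise when cells are handled, 21 were higher and 1 lower in RFP+CD160+ cells, and their summed level was 5882 to 7862 FPKM in RFP+CD160+ libraries, against 3150 to 4015 FPKM in RFP−CD160− libraries. Nr4a1 (62.8 ± 5.22 against 26.5 ± 1.51 FPKM), Ier5 (75.4 ± 6.98 against 30.9 ± 5.47 FPKM) and Fosb (144 ± 20.6 against 42.4 ± 13.2 FPKM) led the list in RFP+CD160+ against RFP−CD160− cells (SD, n = 3 each). Their part in the values of Btg2, Btg1 and Cdkn1a was not tested. Of 34 tested S to M phase genes, 23 were lower in RFP+CD160+ cells, with summed levels of 391 to 444 FPKM, against 494 to 681 FPKM in RFP−CD160− cells. Of these 23, 8 were below 1 FPKM in every RFP+CD160+ library and passed the filter through the RFP−CD160− libraries alone. Mki67, which marks cycling cells, had 2.06, 1.70 and 2.36 FPKM in RFP+CD160+ libraries, against 14.2, 6.46 and 7.52 FPKM in RFP−CD160− libraries. In bulk samples, fewer cells of a type and less RNA per cell cannot be told apart. IEL markers also differed, 2 higher and 8 lower of 11 tested, with summed levels of 3904 to 4233 FPKM in RFP+CD160+ cells and 25077 to 28615 FPKM in RFP−CD160− cells. This list includes granzyme genes and Cd160, for which the cells were sorted, and its sum weights the most abundant transcripts. The log2 fold changes of Cd8a, Cd3e and Itgae were smaller, at -0.67, -0.48 and -0.68. CD4 and CD8αβ T cell markers, 2 higher of 3 tested, summed to 24.5 to 28.4 FPKM in RFP+CD160+ cells and 4.14 to 5.27 FPKM in RFP−CD160− cells. Those 2 were neither Cd4 nor Cd8b1. Cd4 averaged 0.057 FPKM in RFP+CD160+ cells and 0.015 FPKM in RFP−CD160− cells, too low to be tested, and Cd8b1 did not pass (limma adjusted p = 0.668). Epithelial markers had 1 higher and 2 lower of 14 tested, and summed to 132 to 186 FPKM in RFP+CD160+ cells and 140.5 to 452 FPKM in RFP−CD160− cells. Myeloid markers had 3 lower of 4 tested, and summed to 16.7 to 24.4 FPKM in RFP+CD160+ cells and 42.3 to 58.9 FPKM in RFP−CD160− cells. Markers of innate lymphoid and mast cells had 1 higher and 2 lower of 3 tested, with sums of 16.2 to 17.3 FPKM in RFP+CD160+ cells and 17.6 to 20.0 FPKM in RFP−CD160− cells. B and plasma cell markers had 1 lower of 1 tested (14.0 to 15.2 FPKM in RFP+CD160+ cells, 17.8 to 20.9 FPKM in RFP−CD160− cells), and markers of stroma, endothelium and erythroid cells had 1 lower of 3 tested (8.02 to 15.2 FPKM in RFP+CD160+ cells, 12.2 to 17.8 FPKM in RFP−CD160− cells). Only 7 of 14 myeloid and 6 of 9 B and plasma cell markers were present in the RFP table. So were 7 of 10 markers of innate lymphoid and mast cells and 7 of 12 of stroma, endothelium and erythroid cells. No marker present there was at 0 in all 6 libraries, and absent markers could not be read. Hspb1 (heat shock), Krt18 (epithelium), Itgam (myeloid) and Il7r (innate lymphoid) passed the filter through 1 group only. The part of all these markers in the members' values was not tested.

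The comparison of Bcl6 KO with Bcl6 WT cells asks how loss of Bcl6 in CD8αα+ IELs moves the same 10 genes. Cdkn1a was lower in Bcl6 KO cells, 2.91-fold on the FPKM+1 scale, and none of the other 9 passed the test. Only 0.418% of the 9573 genes tested were called here, 0.0313% higher and 0.387% lower. The groups did not overlap for 7 of the 10 genes, beside 33.0% of all genes, and the members' median log2 fold change was 0.02, beside 0.03 over all genes tested. Unadjusted p was under 0.05 for 5 of the 10, beside 5.84% of all genes. Since the members were chosen with earlier results of these data known, these shares are no independent support for a difference.

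Cdkn1a had 4.29 and 4.77 FPKM in Bcl6 KO libraries, against 13.1 and 17.3 FPKM in Bcl6 WT libraries. The KO libraries were close together and both far below the WT libraries. On the log2 scale the difference was -1.54 ± 0.19 (SE; limma adjusted p = 0.0110), and the call held in 14 of 14 alternative settings, where the log2 fold change ran from -1.73 to -1.08. Cdkn1b had 16.7 and 33.4 FPKM in Bcl6 KO libraries, against 20.6 and 15.3 FPKM in Bcl6 WT libraries. The first KO library lay between the WT libraries and the second above both, and the log2 fold change was 0.40 (95% interval -0.27 to 1.06, limma adjusted p = 0.949).

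All 3 members of the BTG and TOB family missed the threshold in Bcl6 KO cells, with unequal spread. Tob1 had 18.9 and 23.5 FPKM in Bcl6 KO libraries, against 39.9 and 37.8 FPKM in Bcl6 WT libraries. Both KO libraries were well below both WT libraries, with a log2 fold change of -0.85 ± 0.17 (SE; limma adjusted p = 0.122). Btg2 had 411 and 392 FPKM in Bcl6 KO libraries, against 539.2 and 539.8 FPKM in Bcl6 WT libraries. Its groups were apart too, with a log2 fold change of -0.43 (95% interval -0.80 to -0.06, limma adjusted p = 0.777). Btg1 had 100.1 and 158 FPKM in Bcl6 KO libraries, against 143 and 124 FPKM in Bcl6 WT libraries. Here the KO libraries lay on either side of the WT libraries, and the log2 fold change of -0.08 (95% interval -0.59 to 0.42) turned to 0.24 without Bcl6 KO replicate 1.

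Slfn2 had 180.2 and 187 FPKM in Bcl6 KO libraries, against 111 and 110.4 FPKM in Bcl6 WT libraries. Every KO library was above every WT library, with a log2 fold change of 0.72 ± 0.15 (SE; limma adjusted p = 0.144). Tsc22d3 had 111 and 112 FPKM in Bcl6 KO libraries, against 152 and 150.3 FPKM in Bcl6 WT libraries. These groups were apart in the other direction, with a log2 fold change of -0.44 (95% interval -0.78 to -0.09, limma adjusted p = 0.702). Foxo1 had 13.7 and 21.6 FPKM in Bcl6 KO libraries, against 13.0 and 12.0 FPKM in Bcl6 WT libraries, and Foxp1 had 15.8 and 16.4 FPKM in Bcl6 KO libraries, against 13.8 and 14.0 FPKM in Bcl6 WT libraries. Neither passed (limma adjusted p = 0.915 and 0.949). Ccng2 had 3.60 and 7.26 FPKM in Bcl6 KO libraries, against 6.24 and 3.37 FPKM in Bcl6 WT libraries. Its libraries differed more within each group than the group means did, with a log2 fold change of 0.13 (95% interval -0.59 to 0.86).

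The Bcl6 KO libraries stood apart from each other. Cdkn1b, Btg1, Ccng2 and Foxo1 differed over 1.5-fold between them, as did 12.9% of all genes, and 9 of the 10 members were higher in KO replicate 2, beside 46.3% of all genes. Tob1 had a log2 fold change of -0.70 without Bcl6 KO replicate 1 and -1.001 without Bcl6 KO replicate 2, and Slfn2 had 0.75 and 0.70. Without Bcl6 WT replicate 1 or 2, Tob1 had -0.81 and -0.89, and Slfn2 had 0.73 and 0.72. In these fits the library left alone in its group is assumed to vary like the other group. Calls depended on which library was left out, so only sizes are given.

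**Figure D2:**
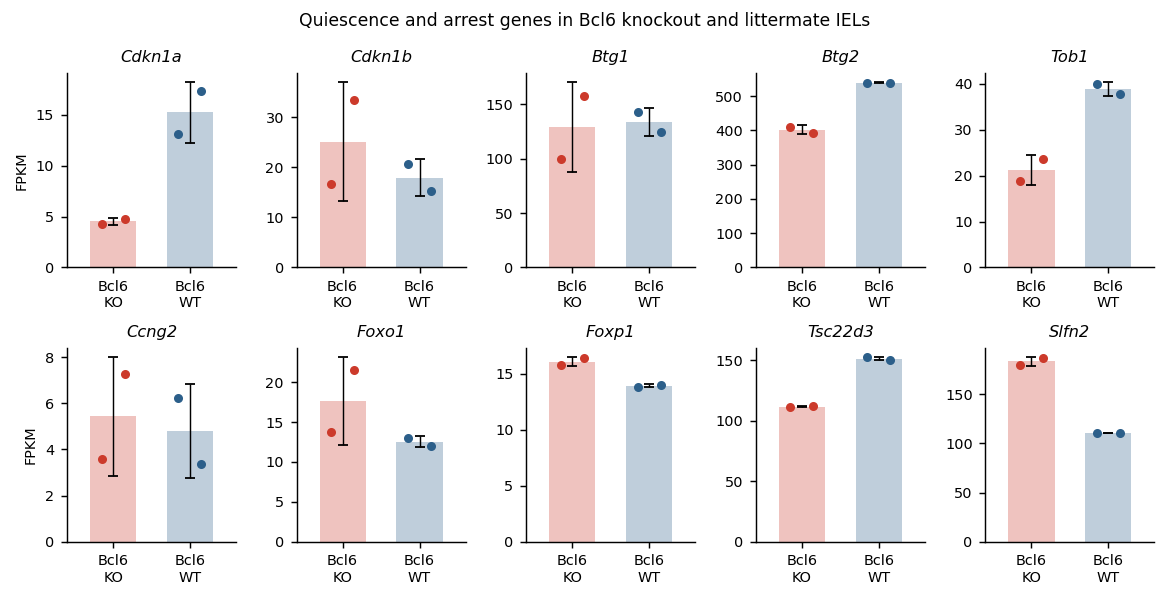
FPKM of the 10 genes in Bcl6 KO cells (left of each panel) and Bcl6 WT cells (right), 1 panel per gene with its own linear axis from 0. Points are libraries, bars are means and error bars are SD (n = 2 per group). The KO libraries of Cdkn1a, at 4.29 and 4.77 FPKM, lie below the WT libraries, at 13.1 and 17.3 FPKM, while those of Cdkn1b, Btg1 and Ccng2 straddle or spread past the WT libraries.

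Immediate-early and heat-shock genes were lower in Bcl6 KO cells, 12 of 23 tested, with summed levels of 4338 to 5072 FPKM, against 9124 to 9432 FPKM in Bcl6 WT cells. Hspa1b (10.6 ± 3.03 against 97.4 ± 1.66 FPKM), Hspa1a (117 ± 15.3 against 654 ± 53.1 FPKM) and Dnajb1 (203 ± 1.16 against 839 ± 34.6 FPKM) led them in Bcl6 KO against Bcl6 WT cells (SD, n = 2 each). Its part in the fall of Cdkn1a was not tested. None of 37 S to M phase genes was called. Epithelial markers, 3 lower of 22 tested, summed to 314 to 352 FPKM in Bcl6 KO cells and 472 to 495 FPKM in Bcl6 WT cells. Myeloid markers, none called of 9, summed to 60.8 to 164 FPKM in Bcl6 KO cells and 46.8 to 64.8 FPKM in Bcl6 WT cells. Cd4 was low, at 1.76 and 1.08 FPKM in Bcl6 KO libraries, against 0.086 and 0.179 FPKM in Bcl6 WT libraries, and was not called (limma adjusted p = 0.117). The part of these markers was not tested either.

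In Prdm1 KO cells, which lack the repressor BLIMP1, Ccng2 was lower than in Prdm1 WT cells and the other 9 genes did not pass the test. Of the 10969 genes tested, 6.84% were called, 4.29% higher and 2.54% lower, so 1 of 10 members is near the background. The groups did not overlap for 2 of the 10, Ccng2 and Slfn2, beside 52.4% of all genes. The members' median log2 fold change was -0.13, beside -0.04 over all genes tested. Ccng2 had a signal of 3085 and 2497 in Prdm1 KO libraries, against 4648 and 4118 in Prdm1 WT libraries. Both KO libraries were below both WT libraries, with a log2 fold change of -0.66 ± 0.13 (SE; limma adjusted p = 0.0327), or 1.58-fold lower. The call held in 13 of 15 alternative settings and was lost without Prdm1 KO replicate 2 (-0.50) and without a mean-variance trend (limma adjusted p = 0.110). With the replicate numbers as a block, where more genes were called over the whole table, Cdkn1b, Tsc22d3 and Slfn2 were called as well.

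Slfn2 had a signal of 3550.2 and 3837 in Prdm1 KO libraries, against 4675 and 5056 in Prdm1 WT libraries. The groups were apart, and the log2 fold change of -0.40 ± 0.10 (SE) did not pass in limma (adjusted p = 0.0665) but passed in DESeq2 on recovered reads (adjusted p = 0.0492). Cdkn1a had a signal of 298 and 186 in Prdm1 KO libraries, against 272 and 92.3 in Prdm1 WT libraries. Its replicates differed more than its groups, and the log2 fold change of 0.57 had a 95% interval of -0.63 to 1.76 (limma adjusted p = 0.576). Without Prdm1 WT replicate 1 it was 1.34 and passed (adjusted p = 0.0329), and without Prdm1 WT replicate 2 it was -0.21. Cdkn1b had a signal of 9587 and 7204 in Prdm1 KO libraries, against 11086 and 9060.0 in Prdm1 WT libraries, and its groups overlapped (log2 fold change -0.27, 95% interval -0.67 to 0.13).

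Btg1 had a signal of 85822 and 68174 in Prdm1 KO libraries, against 80651 and 70996 in Prdm1 WT libraries. Btg2 had 25662 and 20519.8 in Prdm1 KO libraries, against 27916 and 22226 in Prdm1 WT libraries, and Tob1 had 3746 and 2543 in Prdm1 KO libraries, against 3174 and 2693.0 in Prdm1 WT libraries. All 3 overlapped, with 95% intervals of -0.44 to 0.48 for Btg1, -0.52 to 0.29 for Btg2 and -0.37 to 0.53 for Tob1. Foxo1 had 17935 and 11830.4 in Prdm1 KO libraries, against 19996 and 12938 in Prdm1 WT libraries, and Tsc22d3 had 7962 and 6268 in Prdm1 KO libraries, against 9998 and 7469 in Prdm1 WT libraries. In both groups, the first library was the higher of the pair for these 2 genes, and of the 10 members only 1, Slfn2, was higher in replicate 2 of either group, beside 47.2% of all genes in Prdm1 KO cells and 49.3% in Prdm1 WT cells. Foxp1 had 6323 and 5522 in Prdm1 KO libraries, against 6092 and 4684.5 in Prdm1 WT libraries (log2 fold change 0.15, 95% interval -0.20 to 0.50).

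Epithelial markers were higher in Prdm1 KO cells, 12 of 22 tested, with a summed signal of 25546 to 35752, against 18087 to 18370 in Prdm1 WT cells. Among them, Phgr1 passed the filter through the Prdm1 KO libraries only. IEL markers had 2 lower of 11 tested, with a summed signal of 365321 to 370167 in Prdm1 KO cells and 837801 to 879093 in Prdm1 WT cells. Cd8a, Cd3e and Itgae were not called, with log2 fold changes of -0.30, -0.43 and -0.29. Myeloid markers had 2 lower of 5, with 6815 to 7150.2 in Prdm1 KO cells and 10762.5 to 13075 in Prdm1 WT cells. Immediate-early and heat-shock genes had 3 higher, among them Atf3 and Hspa1a, and 1 lower, Dusp2, of 22 tested. Cd4 had a signal of 48.7 and 66.5 in Prdm1 KO libraries, against 6.21 and 8.63 in Prdm1 WT libraries, too low to be tested. The part of these markers in the fall of Ccng2 was not tested.

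In Tcf7 KO cells, none of the 10 genes passed the test by limma, and none had an unadjusted p under 0.05. Tcf7 itself, read over the whole gene, averaged a signal of 7875 ± 167 in Tcf7 KO cells and 15518 ± 124 in Tcf7 WT cells (SD, n = 2 each), a log2 fold change of -0.98, so much of its transcript remained in the KO libraries. EdgeR and DESeq2 on the recovered reads called 0 of the 10 as well. A limma fit with the replicate numbers as a block called more genes over the whole table, and Btg1 alone among the members. Of the 15210 genes tested, 2.72% were called (1.49% higher and 1.23% lower) and 12.6% had an unadjusted p under 0.05. The members' median log2 fold change was -0.04, beside 0.00181 over all genes tested. Most intervals were narrow, because the libraries of a group lay close together, and that closeness may be technical. For Cdkn1b, Btg1, Btg2, Tob1, Foxo1, Foxp1, Tsc22d3 and Slfn2 the lowest 95% limit was -0.2415 (Tsc22d3) and the highest 0.1836 (Tob1).

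Btg1 had a signal of 52287 and 52956 in Tcf7 KO libraries, against 56875 and 55051 in Tcf7 WT libraries. Btg2 had 20237.5 and 19912 in Tcf7 KO libraries, against 21608 and 20967 in Tcf7 WT libraries. Both KO libraries lay below both WT libraries for these 2 genes, with log2 fold changes of -0.09 for Btg1 and -0.08 for Btg2 that did not pass (limma adjusted p = 0.471 and 0.507). Tob1 had 1445 and 1501 in Tcf7 KO libraries, against 1391 and 1557 in Tcf7 WT libraries, a log2 fold change of 0.001. Ccng2 had 5002 and 4616 in Tcf7 KO libraries, against 4381.5 and 4494 in Tcf7 WT libraries, and both KO libraries were the higher ones. Its log2 fold change was 0.11 with a 95% interval of -0.01 to 0.24 (limma adjusted p = 0.474).

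Cdkn1a had a signal of 102 and 125 in Tcf7 KO libraries, against 93.3 and 78.4 in Tcf7 WT libraries. Both KO libraries were higher, with a log2 fold change of 0.39 and a 95% interval of -0.21 to 1.00 (limma adjusted p = 0.645). These values rest on 71 to 132 reads per library, the lowest of any member. Cdkn1b ran over 7428.5 and 7513 in Tcf7 KO cells and 7567 and 7772 in Tcf7 WT cells. Foxo1 ran over 8039.5 and 7897 in Tcf7 KO cells and 8373 and 7940.0 in Tcf7 WT cells. Foxp1 had 4896 and 5122 in Tcf7 KO cells and 5157 and 5162 in Tcf7 WT cells. Among these 3, the groups of Foxo1 overlapped and those of Cdkn1b and Foxp1 did not. Tsc22d3 had 6022 and 5869.8 in Tcf7 KO cells and 6765 and 6110.4 in Tcf7 WT cells, and Slfn2 had 6317 and 6376 in Tcf7 KO cells and 6938 and 6455 in Tcf7 WT cells. Groups of 8 of the 10 genes did not overlap, beside 41.6% of all genes. Epithelial markers had 6 higher and 2 lower of 22 tested, with a summed signal of 39352.5 to 40524 in Tcf7 KO cells and 32685 to 33381 in Tcf7 WT cells. IEL markers had 2 higher and 1 lower of 11 tested. Higher calls were also made for 2 of 7 CD4 and CD8αβ T cell markers and 1 of 5 myeloid markers. Cd4 was not among those calls, with a signal of 55.7 and 50.2 in Tcf7 KO libraries, against 22.8 and 11.0 in Tcf7 WT libraries (limma adjusted p = 0.140). Markers of stroma, endothelium and erythroid cells had 2 higher of 6. The part of these markers was not tested.

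**Figure D3:**
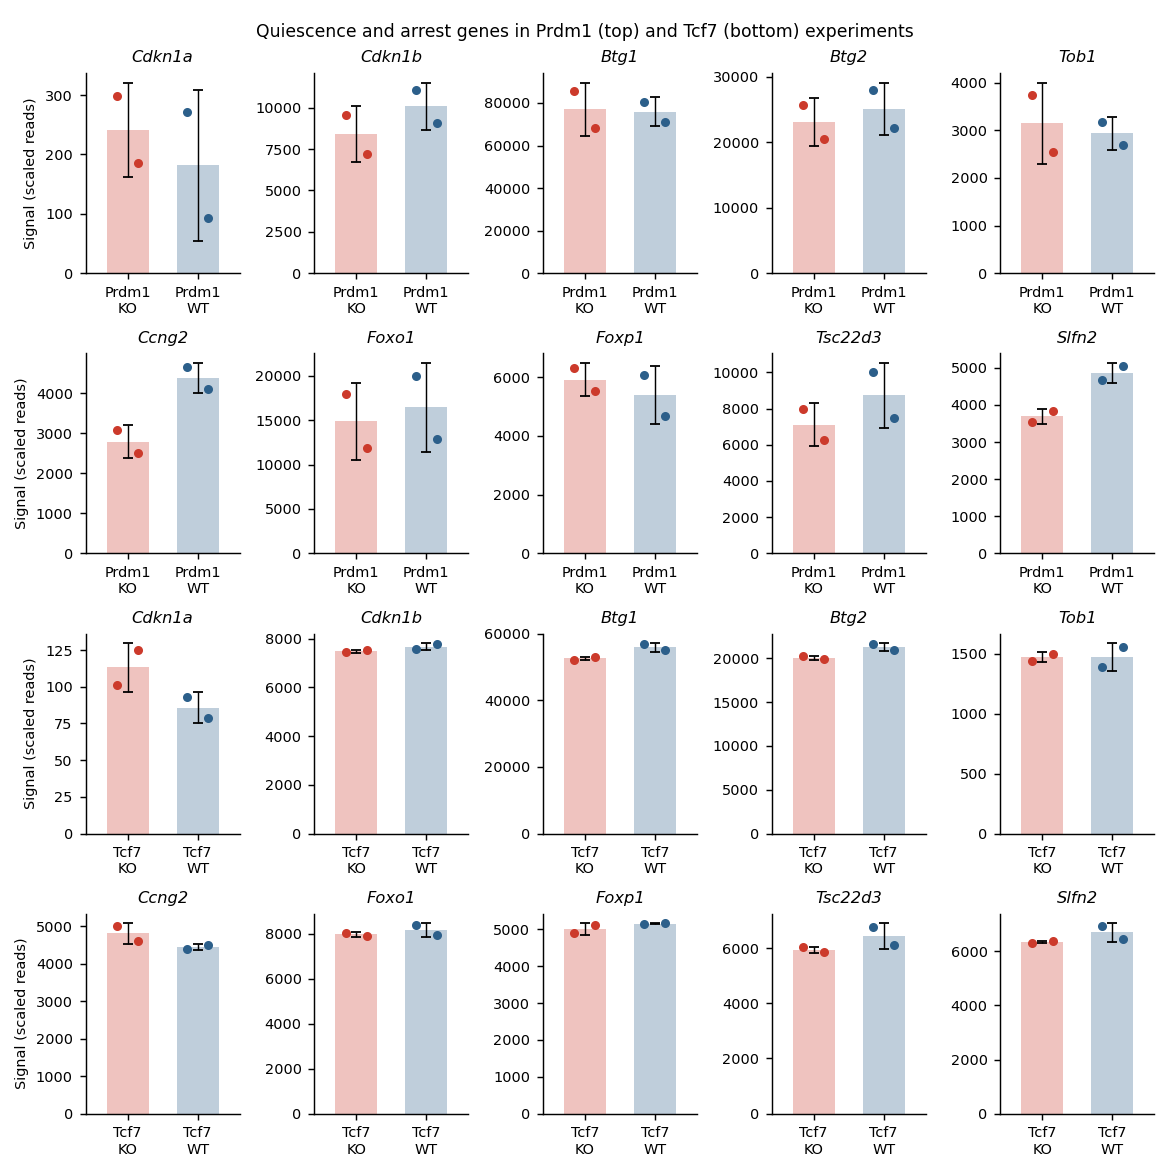
Signal (reads divided by the library's size factor) of the 10 genes in the Prdm1 experiment (upper 10 panels) and the Tcf7 experiment (lower 10 panels), KO on the left and WT on the right of each panel, each with its own linear axis from 0. Points are libraries, bars are means and error bars are SD (n = 2 per group). Ccng2 is lower in Prdm1 KO cells, at 3085 and 2497, against 4648 and 4118 in Prdm1 WT cells, and the Tcf7 panels show little difference beside that.

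Set side by side, Ccng2 had a log2 fold change of -0.82 in RFP+CD160+ cells, 0.13 in Bcl6 KO cells, -0.66 in Prdm1 KO cells and 0.11 in Tcf7 KO cells. Cdkn1a had 0.47, -1.54, 0.57 and 0.39 in the same order, and Btg1 had 0.42, -0.08, 0.02 and -0.09. The scale was log2(FPKM+1) for the RFP and Bcl6 comparisons and log2(signal+1) for Prdm1 and Tcf7, so sizes are not like for like. With a pseudocount of 0.1 FPKM, Cdkn1a had 0.84 in RFP+CD160+ cells and -1.71 in Bcl6 KO cells. These comparisons share no libraries. Whether a gene's differences are unequal between experiments was not tested.

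**Figure D4:**
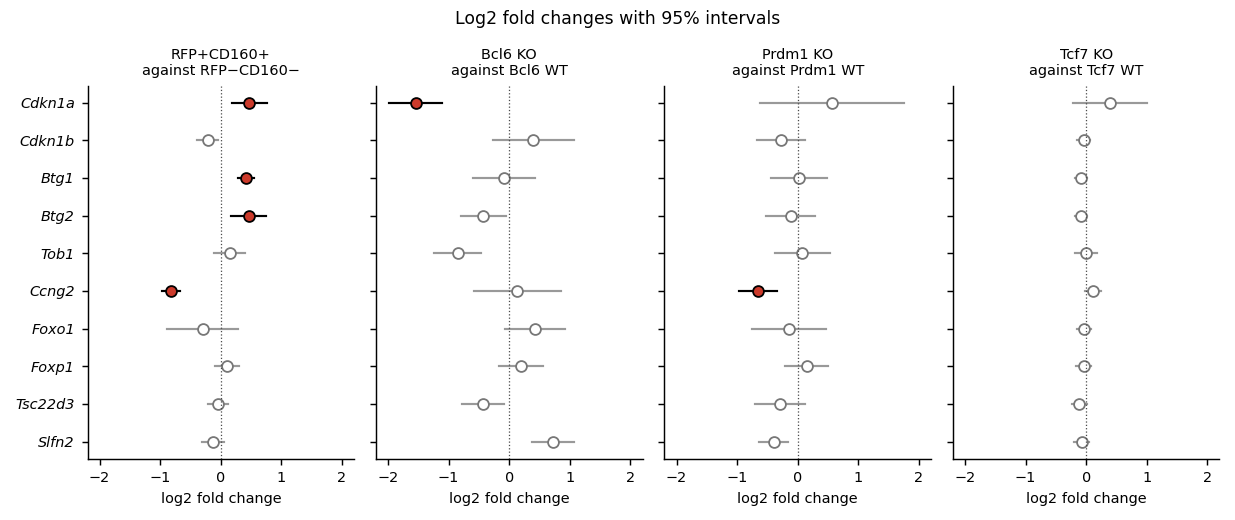
Log2 fold changes of the 10 genes on the log2(value+1) scale in the 4 comparisons, with 95% intervals from limma. The value is FPKM in the RFP and Bcl6 panels and signal in the Prdm1 and Tcf7 panels. Filled points passed an adjusted p of 0.05 and open points did not, and positive values mean higher in RFP+CD160+ or KO cells. Ccng2 is filled in the RFP and Prdm1 panels, at -0.82 and -0.66, Cdkn1a in the RFP and Bcl6 panels, at 0.47 and -1.54, and no point is filled in the Tcf7 panel.

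Related genes in 13 lists put the members beside their pathways. In RFP+CD160+ cells, calls ran in both directions in most of them, against the same background of 38.0%. These counts include genes that passed the filter through 1 group only, since every library of the other group was below 1 FPKM. They are Il7r among the FOXO1 targets, Phlda3 among the p53 targets, and Bach2, Runx1 and Satb1 among other quiescence genes. E2f2 among the G1 genes, Hspb1 among the heat-shock genes and the S to M phase genes counted above are others. Satb1, E2f2 and Hspb1 are named after their values were seen. Among other CDK inhibitors, 1 was higher and 1 lower of 2 tested. Cdkn2d, encoding p19, averaged 25.1 ± 3.72 FPKM in RFP+CD160+ cells and 14.5 ± 1.18 FPKM in RFP−CD160− cells, while Cdkn2c, encoding p18, averaged 2.60 ± 0.247 FPKM in RFP+CD160+ cells and 7.88 ± 1.79 FPKM in RFP−CD160− cells (SD, n = 3 each). Of 13 other BTG/TOB and CCR4-NOT genes, 2 were higher and 4 lower. Tob2, the closest relative of Tob1, averaged 31.6 ± 2.29 FPKM in RFP+CD160+ cells and 22.3 ± 1.76 FPKM in RFP−CD160− cells. Cnot10 was higher and Cnot9 lower, both subunits of the deadenylase. Of 14 pocket protein, DREAM and G cyclin genes, 2 were higher and 3 lower, among them E2f5 higher, and Ccni and Rbl2, the p130 pocket protein of resting cells, lower.

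Of 5 other FOXO and FOXP factors, Foxp4 was higher (24.8 ± 1.34 FPKM in RFP+CD160+ cells, 14.1 ± 1.18 FPKM in RFP−CD160− cells) and Foxo3 lower (35.2 ± 2.56 FPKM in RFP+CD160+ cells, 57.9 ± 3.73 FPKM in RFP−CD160− cells). FOXO1 target genes had 6 higher and 1 lower of 12 tested. Il7r, the IL-7 receptor gene, averaged 1.63 ± 0.0756 FPKM in RFP+CD160+ cells and 0.122 ± 0.0659 FPKM in RFP−CD160− cells, and Ddit4, an mTOR inhibitor, averaged 44.8 ± 4.62 FPKM in RFP+CD160+ cells and 17.4 ± 2.72 FPKM in RFP−CD160− cells. Txnip, a brake on glucose uptake, was lower, at 71.1 ± 16.5 FPKM in RFP+CD160+ cells and 136.5 ± 14.9 FPKM in RFP−CD160− cells. The list of FOXO1 and mTOR regulators had 1 higher and 2 lower of 16. Inpp5d and Akt1 were lower. The higher gene, Pdk1, encodes a pyruvate dehydrogenase kinase rather than a regulator of FOXO1 or mTOR. TSC22 family and glucocorticoid receptor genes had 4 higher and 4 lower of 11. Errfi1, a feedback inhibitor of EGF receptor signalling, averaged 19.2 ± 3.81 FPKM in RFP+CD160+ cells and 81.6 ± 12.6 FPKM in RFP−CD160− cells. Schlafen genes had 2 higher of 4, Slfn8 and Slfn1, both with log2 fold changes of 0.37, while Slfn2 had -0.13. Targets of p53, the factor that induces Cdkn1a, had 3 higher and 3 lower of 13.

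Other quiescence genes had 9 higher and 8 lower of 21 tested. Klf4, a zinc finger factor that holds CD8 T cells at rest, averaged 21.4 ± 2.78 FPKM in RFP+CD160+ cells and 4.10 ± 0.0367 FPKM in RFP−CD160− cells, and Bach2, a repressor of effector genes, averaged 2.98 ± 0.227 FPKM in RFP+CD160+ cells and 0.391 ± 0.0455 FPKM in RFP−CD160− cells. Runx1 was lower, at 0.495 ± 0.0862 FPKM in RFP+CD160+ cells and 5.66 ± 0.489 FPKM in RFP−CD160− cells. Of 14 G1 cyclin and kinase genes, 2 were higher and 5 lower. Myc, a driver of T cell growth, averaged 50.5 ± 7.16 FPKM in RFP+CD160+ cells and 14.1 ± 2.45 FPKM in RFP−CD160− cells, and Ccnd2, a D cyclin, averaged 31.7 ± 4.53 FPKM in RFP+CD160+ cells and 74.3 ± 7.83 FPKM in RFP−CD160− cells.

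In Bcl6 KO cells, the same lists held few calls outside the heat-shock genes. Ddit4 averaged 3.87 ± 0.856 FPKM in Bcl6 KO cells and 11.7 ± 0.643 FPKM in Bcl6 WT cells (log2 fold change -1.39, limma adjusted p = 0.0197). Zfp36, which encodes the mRNA-destabilising protein tristetraprolin, averaged 60.6 ± 14.2 FPKM in Bcl6 KO cells and 150.3 ± 3.01 FPKM in Bcl6 WT cells (log2 fold change -1.32, limma adjusted p = 0.0256). The counts were 1 lower of 13 FOXO1 targets and 1 lower of 20 other quiescence genes, and the 10 lists that remain beside these and the heat-shock genes held no call.

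In Prdm1 KO cells, TSC22 and glucocorticoid receptor genes had 2 higher and 1 lower of 12 tested. Tsc22d1 averaged a signal of 1655.5 ± 32.0 in Prdm1 KO cells and 933 ± 156 in Prdm1 WT cells, and Errfi1 averaged 3831 ± 1344 in Prdm1 KO cells and 9165 ± 1366 in Prdm1 WT cells (SD, n = 2 each). Other quiescence genes had 1 higher and 4 lower of 21, with Runx1 at 334 ± 166 in Prdm1 KO cells and 2497 ± 875 in Prdm1 WT cells, and with Vsir, the gene of the inhibitory receptor VISTA, at 12470.0 ± 205 in Prdm1 KO cells and 19265 ± 346 in Prdm1 WT cells. Of 16 G1 genes, Myc and Ccnd1 were higher and none was lower. No gene was called among the other CDK inhibitors, the BTG/TOB and CCR4-NOT genes, the pocket proteins, the FOXO and FOXP factors, the FOXO1 targets and regulators, the Schlafen genes, the p53 targets or the S to M phase genes.

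In Tcf7 KO cells, Errfi1 averaged a signal of 10373.0 ± 74.6, against 6453.0 ± 117 in Tcf7 WT cells, and Fkbp5, a glucocorticoid-induced chaperone partner, averaged 8770 ± 226, against 6862 ± 39.6 in Tcf7 WT cells, so 2 of 12 genes of that list were higher. FOXO1 targets had 1 higher, Txnip, and 2 lower, Trib2 and Ddit4, of 15 tested. Foxo3 was higher among 5 FOXO and FOXP factors, Inpp4b lower among 17 genes of the regulator list and Slfn5 higher among 6 Schlafen genes. Other quiescence genes had 3 higher, Mxd1 and Klf10 among them, and 1 lower, Bach2, of 21. Immediate-early and heat-shock genes had 1 higher, Atf3, and 3 lower of 22, led by Hspa1a and Hspa1b. The lists of CDK inhibitors, BTG/TOB and CCR4-NOT genes, pocket proteins, p53 targets, G1 genes and S to M phase genes held no call.

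**Figure D5:**
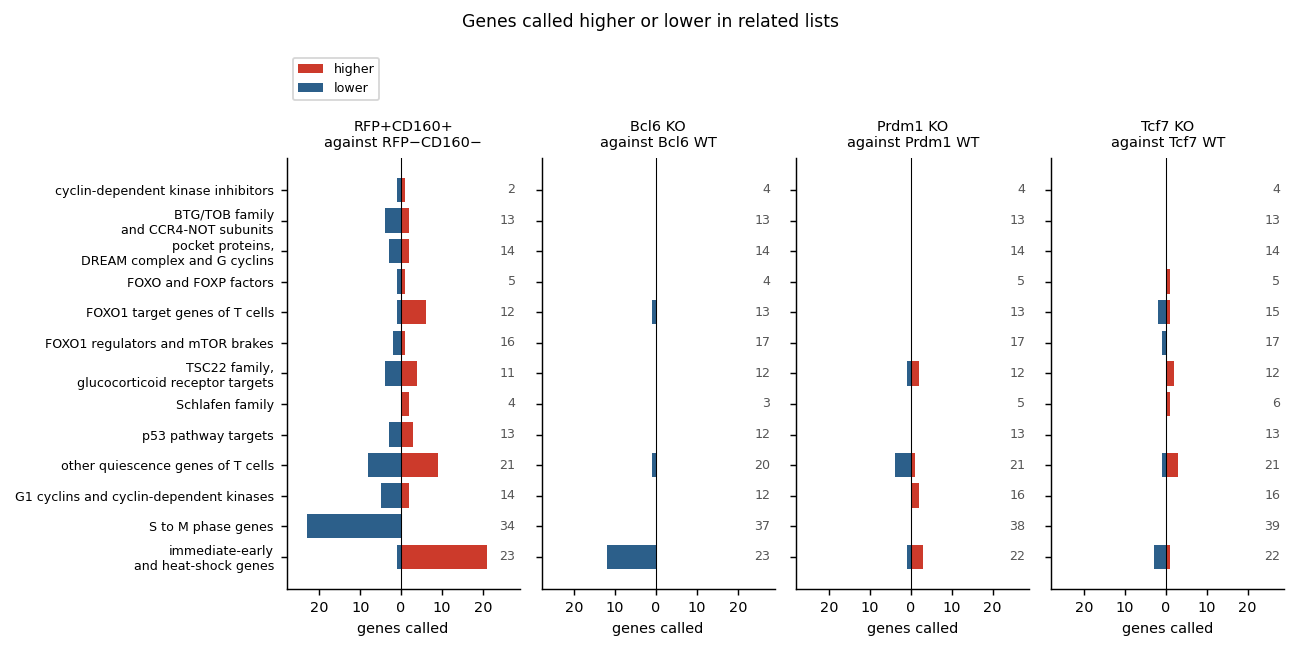
Numbers of genes called higher (right of 0, red) and lower (left of 0, blue) in RFP+CD160+ or KO cells in 13 lists of related genes without the 10 members, 1 panel per comparison, with the number tested printed at the right. In the RFP panel 23 of 34 S to M phase genes are lower and 21 of 23 immediate-early and heat-shock genes higher, and in the Bcl6 panel 12 of 23 immediate-early and heat-shock genes are lower.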

How the data were processed

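RNA of sorted cells was isolated with MagZol and sequenced by BGI Genomics or Novogene, per the labels' protocols, with no provider given for any library. Tools listed in the submitters' processing notes, without roles, are featureCounts, Subread, RSEM, DESeq2, Bowtie2 and Trim Galore 0.4.4, with the mm10 build. The authors deposited FPKM for the RFP and Bcl6 experiments. The Prdm1 and Tcf7 values were deposited under the name FPKM, but are a signal of reads divided by 1 size factor per library: 100% of them were whole multiples of the library's smallest value (tolerance 0.01), and reads were recovered from that. Depth in the FPKM tables was estimated from values times gene length (96.1 to 98.3% whole, tolerance 0.02). FPKM thresholds planned for those 2 experiments were replaced by signal thresholds.

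Each experiment was fitted alone on log2(value+1) with limma 3.58.1 in R 4.3.3 (eBayes with trend), two-sided, with Benjamini-Hochberg adjustment over all genes and a threshold of 0.05. A gene was tested with at least 1 FPKM, or a signal of 50, in at least 3 libraries (RFP) or 2 libraries (knockouts), and 10 of 10 members passed in each experiment. Alternatives were other pseudocounts and filters, rescaled totals, quantile normalization, centring, no trend, a replicate block, leaving out each library, and edgeR 4.0.16 and DESeq2 1.42.0 on recovered reads. The genes named are the 10 members, the sorted or deleted genes, IEL markers, and up to 3 called genes per list by smallest p. Further genes that passed the filter through 1 group only were named after their values were seen. Members and lists were chosen with earlier results of these data known. Promoters are RefSeq windows (GRCm38.p6). Per GENCODE vM21, exons of Cdkn1a, Foxo1 and Foxp1 overlap other genes, so those reads may be shared. The replicate numbers in the labels were not taken as pairs in the main fits. The 2 libraries the labels put in no group entered no comparison.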

Additional observations from a re-analysis of the deposited data

Results flagged for a closer look

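The 2 libraries that the labels put in no group share a table with the sorted cells. Both lay above all 3 RFP−CD160− libraries in 6 of the 10 genes, and the lower of their values is what marks each result. It was 3.65 FPKM for Cdkn1a, with 4.00 in the other library, above the 1.77 FPKM that was the highest RFP+CD160+ value as well. For Tob1 it was 60.1 FPKM, with 63.9 FPKM in the other library, and it exceeded every RFP+CD160+ library (highest 39.9 FPKM). For Foxp1 it was 9.97 FPKM and for Tsc22d3 59.8 FPKM, both above the highest RFP+CD160+ values of 9.33 and 55.9 FPKM. For Btg1 it was 387 FPKM, below the RFP+CD160+ range of 404 to 445 FPKM, and for Btg2 298 FPKM, within the RFP+CD160+ range of 262 to 349 FPKM. Both libraries were above all RFP−CD160− libraries for 4500 genes, 34.7% of the genes in that table, so the members' count is read against that share. No test was made, since the titles of these libraries (LI_1 and LI_2) name neither a sort nor a deletion. Their tissue label reads small intestine and their genotype Bcl6-RFP/RFP, and what LI stands for is not given.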

How the results depend on the processing

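Every direction or count below is set beside the reported value, and causes were not tested. Leaving out a library also lowered by 1 the number of libraries in which a gene had to reach the filter, so more genes were tested, and the fits on recovered reads changed scaling and test together. In the sorted cells, Btg1 and Ccng2 kept their calls in 15 of 15 alternatives, Btg2 in 12 of 15 and Cdkn1a in 10 of 14 (it did not reach the filter of 5 FPKM). Tsc22d3 reversed to 0.11 with library totals rescaled and 0.048 after quantile normalization, and Slfn2 to 0.033 with totals rescaled. Leaving out 1 library gave 2 to 5 members called. In the Bcl6 experiment, leaving out 1 library gave 39 to 1562 genes and 1 to 8 members called, with log2 fold changes of -0.087 to 0.88 for Cdkn1b, -0.41 to 0.24 for Btg1 and -0.29 to 0.56 for Ccng2. In the Prdm1 experiment the genes called, 750 as reported, were 422 with a filter of 250 in signal and 1184 by DESeq2 on recovered reads, and 569 to 1255 with 1 library left out (1255 without Prdm1 WT replicate 2). The members called were 0 without a mean-variance trend, 2 by DESeq2 and 0 to 2 with 1 library left out. With 1 library left out, log2 fold changes ran from -0.21 to 1.34 for Cdkn1a, -0.15 to 0.18 for Btg1, -0.28 to 0.046 for Btg2, -0.20 to 0.36 for Tob1, -0.46 to 0.17 for Foxo1 and -0.044 to 0.34 for Foxp1. In the Tcf7 experiment the genes called, 413 as reported, were 9 without a trend and 243 to 738 with 1 library left out, fewer without either KO library and more without either WT library. Tob1, at 0.001 as reported, was -0.010 with totals rescaled, -0.00054 after centring, -3.4e-05 by edgeR and -0.00040 by DESeq2, and ran from -0.080 to 0.082 with 1 library left out, while Foxo1 ran from -0.071 to 0.0051. A library left alone in its group is assumed to vary like the other group.

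A replicate block used the label numbers. Deviations of same-numbered libraries had correlations of -0.23, -0.00027 and -0.33 in the sorted cells, where 0 libraries correlated best with their own number. The correlations were -0.46, 0.53 and 0.06 in the Bcl6, Prdm1 and Tcf7 experiments, which have 2 pairs each. In the Prdm1 experiment, same-numbered libraries thus shared deviations that the main fit does not model. The numbers were not taken as pairs in the main fits. The block called 78 of 9573 genes tested in the Bcl6 experiment. In the Prdm1 experiment it called 2386 of 10969 genes and 4 of 10 members (Ccng2, Cdkn1b, Tsc22d3 and Slfn2). It called 977 of 15210 genes and 1 of 10 members (Btg1) in the Tcf7 experiment, and in the sorted cells Cdkn1a missed the threshold. With the Bcl6 numbers crossed, an alternative chosen after seeing the data, 452 of 9573 genes and 3 of 10 members were called. Depth limits Cdkn1a most, with 71 to 281 recovered reads per library in the Prdm1 and Tcf7 experiments.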

Other observations

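In the 2 libraries without a group, the other 4 genes were within or below the sorted cells. Ccng2 stood at 16.3 and 15.3 FPKM, against 14.4 to 15.6 FPKM in RFP+CD160+ cells and at least 25.9 FPKM in RFP−CD160− cells. Cdkn1b stood at 67.5 and 67.0 FPKM, below all 6 sorted libraries. Foxo1 had 29.9 and 35.2 FPKM and Slfn2 78.6 and 76.6 FPKM, inside the values of the sorted cells.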
